A study of Mus musculus with 10 samples.

Results

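Progression from G2 through mitosis was followed here through 33 genes, chosen by name as the core mitotic machinery and found by matching the Ensembl identifiers of the deposited table to mouse symbols of GENCODE. All 33 were found among the 38887 identifiers of the table, and all 33 passed the filter on low counts that left 14346 genes for testing. Entry into mitosis is driven by the kinase Cdk1 bound to A-type and B-type cyclins. Aurora and Polo kinases, kinesins and kinetochore proteins then build the spindle and attach chromosomes to it, the spindle checkpoint holds cells until attachment is complete, and the anaphase-promoting complex with Cdc20 marks cyclin B and securin for destruction. Transcripts of these genes accumulate in G2 and mitosis and are low in resting cells, so that in bone marrow they mark dividing progenitors and are scarce in mature neutrophils.

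Hematopoietic progenitor cells came from the bone marrow of mice bearing Lewis lung carcinoma, a transplantable mouse tumour. The CK2i group, 5 libraries, was from mice treated for 2 weeks with BMS-595 at 60 mg/kg, a small molecule that blocks protein kinase CK2. The vehicle group, 5 libraries whose titles read untreated, was from mice given vehicle over the same time. All mice carried the tumour, no tumour-free group was analysed here, and the sources used here give neither strain, sex and age of the mice nor the way progenitors were isolated. Since no label ties each library to its own mouse, the p-values reflect spread among these samples only, part of which may be technical.

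Total estimated counts ranged from 34127674 to 40811539 in CK2i libraries and from 37569160 to 43636152 in vehicle libraries. In edgeR's quasi-likelihood test over all genes, with an adjusted p under 0.05 as the threshold, 13.2% of tested genes were called, 6.43% higher and 6.76% lower in CK2i. CK2i libraries 2 and 5 stood apart from the other 8 libraries on the first principal component. Their scores were -43.3 and -43.7, while those of the other CK2i libraries ran from -12.5 to 4.10 and those of vehicle libraries from 9.37 to 29.6. Each of the 10 progenitor markers, among them Kit, Cd34 and Mpo, was above 11 FPKM in every library. The 4 that rose were Mpo, Elane, Prtn3 and Ctsg, and the 1 that fell was Kit (log2 -0.26, adjusted p = 0.0302). Of those not called, Cd34, Flt3 and Cd48 differed by more than 0 and Myb and Gata2 by less. The summed level of all 10 was 5938 to 8986 CPM in CK2i libraries and 3614 to 6505 CPM in vehicle libraries. Mpo alone averaged 4379 ± 814 CPM in CK2i libraries and 2837 ± 713 CPM in vehicle libraries.

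Markers of other cells were also read. Their summed levels were 2955 to 3785 CPM in CK2i libraries and 3423 to 4695 CPM in vehicle libraries for 14 erythroid genes, 1683 to 3510.0 CPM in CK2i libraries and 2884 to 4461 CPM in vehicle libraries for 10 megakaryocyte genes, 52.2 to 135 CPM in CK2i libraries and 36.1 to 76.1 CPM in vehicle libraries for 12 late neutrophil genes and 537 to 1108 CPM in CK2i libraries and 373 to 618 CPM in vehicle libraries for 10 monocyte genes. They were 1031 to 3588 CPM in CK2i libraries and 1821 to 2536 CPM in vehicle libraries for 11 B lymphoid and plasma cell genes, 41.2 to 78.4 CPM in CK2i libraries and 30.9 to 57.7 CPM in vehicle libraries for 10 T and NK genes and 154 to 228 CPM in CK2i libraries and 189 to 272 CPM in vehicle libraries for 10 stromal and endothelial genes. The B lymphoid and plasma cell sum of 3588 CPM was that of CK2i 3, where Ighm alone was at 3119 CPM. In CK2i 1, 2, 4 and 5 that sum was 1525, 1031, 1128 and 1135.5 CPM. Of the markers in all these lists, 5 of 10 megakaryocyte genes fell and none rose, 6 of 14 erythroid genes rose and 3 fell, 4 of 11 tested late neutrophil genes and 4 of 10 monocyte genes rose. In the other lists 1 of 7 tested B lymphoid and plasma cell genes and 1 of 10 stromal genes fell, and none of 4 tested T and NK genes was called. No marker was at 0 in all libraries, and 9 of 10 T and NK markers, the B cell markers Pax5, Ebf1, Vpreb1 and Igll1, 3 late neutrophil markers (Ltf, Mmp9 and Ly6g), 3 stromal markers (Col3a1, Cdh5 and Emcn) and the monocyte marker Fcgr1 had a mean under 1 FPKM. The part of the cell mixture in the differences below was not tested, and in bulk RNA fewer cells of a type and less RNA per cell cannot be told apart.

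Every member averaged more than 12 FPKM in both groups. On the FPKM scale, which divides by transcript length and allows levels to be compared between genes, Top2a, the topoisomerase that untangles sister chromatids, was highest with 287 ± 22.9 FPKM in CK2i libraries and 262 ± 8.96 FPKM in vehicle libraries (SD, n = 5 per group). Cdk1 came second with 196 ± 6.75 FPKM in CK2i libraries and 185 ± 10.3 FPKM in vehicle libraries. Between them and the lower genes lay Mki67 (161 ± 32.1 FPKM in CK2i libraries and 121 ± 5.59 FPKM in vehicle libraries), Hjurp (140.2 ± 6.69 FPKM in CK2i libraries and 136 ± 10.8 FPKM in vehicle libraries) and Ccnb1 (134 ± 7.74 FPKM in CK2i libraries and 126 ± 9.35 FPKM in vehicle libraries). In vehicle libraries the ranges of 1 SD around these 3 means overlapped, so that their order is not resolved. The lowest member was Cdc25c, the phosphatase that activates Cdk1, at 12.9 ± 0.64 FPKM in CK2i libraries and 12.6 ± 0.536 FPKM in vehicle libraries, followed by Cenpf at 18.6 ± 3.32 FPKM in CK2i libraries and 15.0 ± 0.855 FPKM in vehicle libraries and Ttk at 19.0 ± 1.75 FPKM in CK2i libraries and 18.0 ± 0.639 FPKM in vehicle libraries. Cenpa, the centromeric histone, was at 99.8 ± 5.45 FPKM in CK2i libraries and 117 ± 4.17 FPKM in vehicle libraries. Nuf2 and Ndc80, which bind each other in the microtubule-binding complex of the kinetochore, averaged 46.2 and 23.8 FPKM in CK2i libraries and 45.8 and 22.6 FPKM in vehicle libraries.

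**Figure D1:**
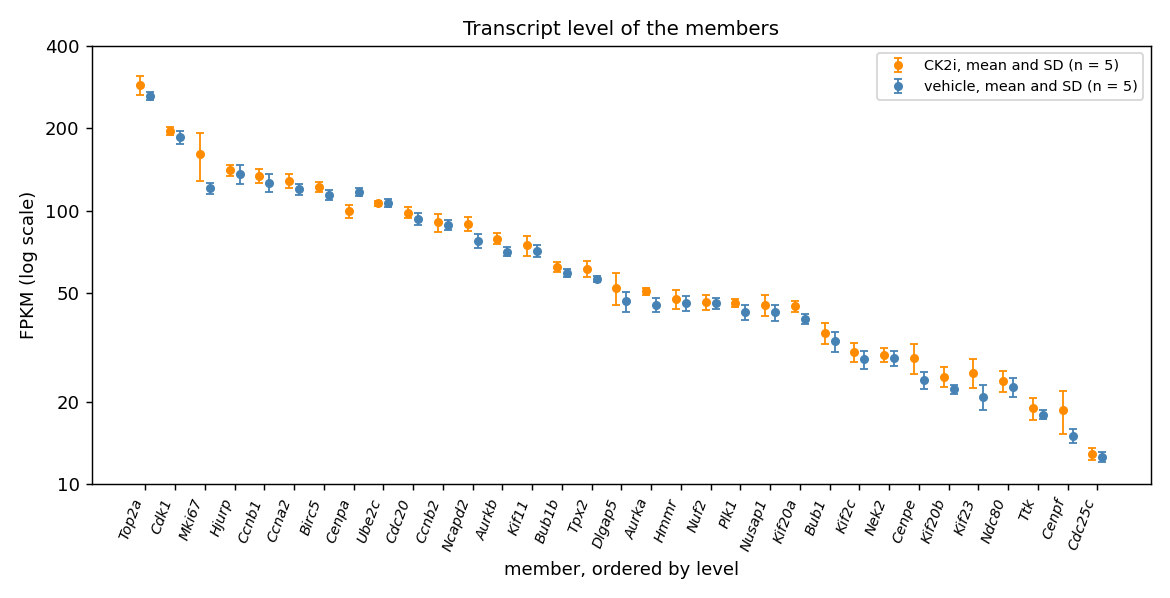
Mean FPKM of each of the 33 members (log scale) with SD in 5 CK2i libraries (orange) and 5 vehicle libraries (blue), ordered from the highest to the lowest level. Top2a leads and Cdc25c is lowest, and for most members the bars of both groups overlap, with Cenpa the clear case of a lower CK2i mean.

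The comparison of CK2i with vehicle asks whether the inhibitor changed the transcripts of the division machinery in these progenitors. Most of that machinery, 28 of 33 members, did not pass the threshold. That does not make each difference smaller than the called ones: Cenpf, Kif23 and Cenpe, not called, differed by 0.36, 0.29 and 0.26 log2. Mki67, which encodes the chromosome coat protein Ki-67, rose 1.32-fold, Ncapd2, a condensin subunit, 1.15-fold, Aurka, the centrosomal Aurora kinase, 1.11-fold and Kif20a, a kinesin of the anaphase midzone, 1.11-fold. Cenpa moved the other way and fell to 0.842 of its vehicle level.

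The 5 calls are 15.2% of the members, beside 13.2% of all genes tested, and a share this near the background is not a result about the members. By direction they were 4 higher and 1 lower, where 6.43% and 6.76% of all genes were called. An unadjusted p under 0.05 was reached by 13 of 33 members (39.4%), against 34.6% of all genes. The log2 difference was above 0 for 30 members and below 0 for 3, with a median of 0.077, where 49.8% of all genes lay above 0 and their median was -0.00062. The groups did not overlap for 2 members, Ncapd2 with all CK2i libraries above (5.18% of all genes) and Cenpa with all below (5.76% of all genes). In another 7 members (21.2%) 4 of the 5 CK2i libraries exceeded every vehicle library, which held for 8.35% of all genes. All differences were small in size: from -0.25 for Cenpa to 0.40 for Mki67 on the log2 scale.

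**Figure D2:**
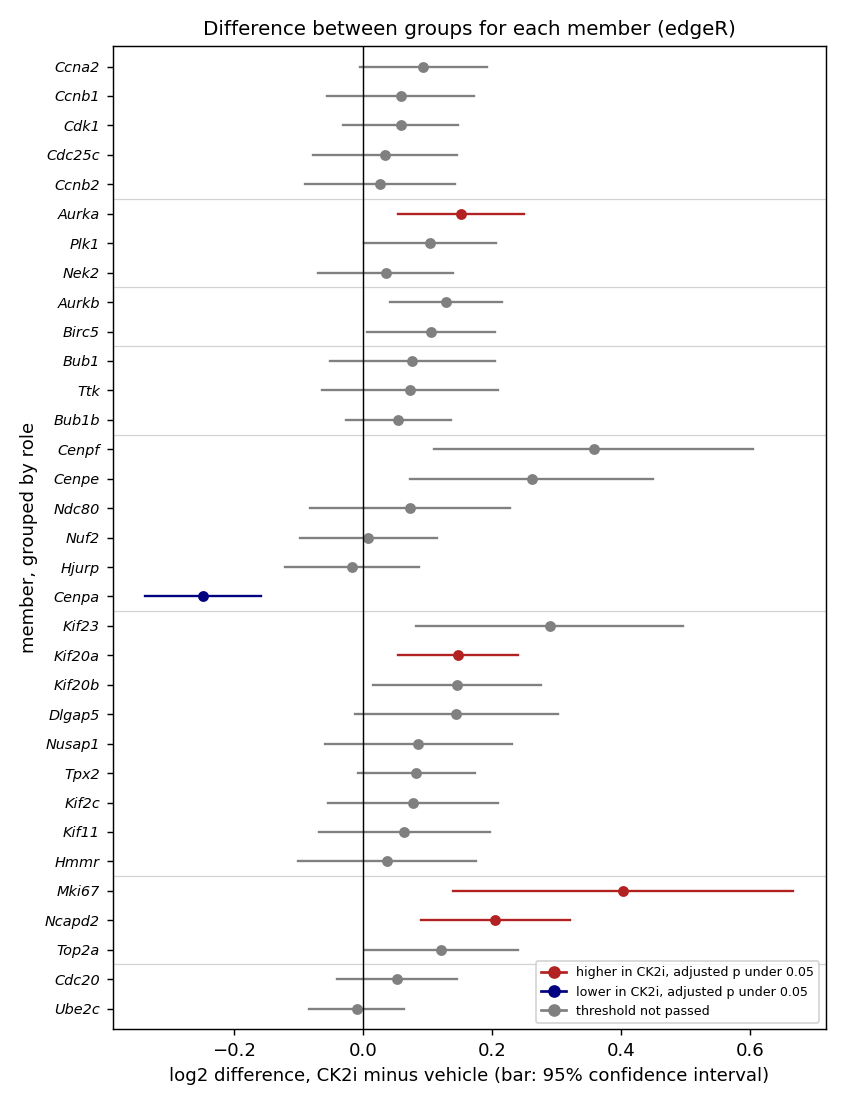
Log2 difference of each member, CK2i minus vehicle, from edgeR's fit of all genes, with its 95% confidence interval; rows are grouped by role, red and blue mark members past an adjusted p of 0.05 and grey the others. The 4 red members lie at 0.15 to 0.40, Cenpa lies at -0.25, and most grey intervals include 0.

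The calls differed in how far they rested on single libraries. Cenpa was called in all 10 fits that left out 1 library each (adjusted p from 0.00766 to 0.0303) and in the fit limited to CK2i 1, 3 and 4 on the treated side (log2 -0.21, adjusted p = 0.041). The 4 rises were lost without CK2i 2, 4 or 5 or without vehicle 1, 3, 4 or 5, each of which left 1 of 33 members called, while 11 were called without CK2i 3. Those of Aurka and Kif20a were also lost without CK2i 1, and that of Mki67 without vehicle 2. Calls over all genes moved as well, from 446 to 3198 across these 10 fits, against 1892 in the full fit. Over the 10 fits the adjusted p ran from 0.0158 to 0.0795 for Ncapd2, 0.0287 to 0.111 for Aurka, 0.0258 to 0.104 for Kif20a and 0.0144 to 0.115 for Mki67. With the treated group limited to CK2i 1, 3 and 4, the log2 difference of Mki67 was 0.20 (adjusted p = 0.245), that of Ncapd2 0.15 (0.152), that of Aurka 0.15 (0.15) and that of Kif20a 0.14 (0.141).

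Promoters of genes that peak in G2 and mitosis typically carry the cell cycle homology region, a short element bound by MuvB complexes, near CCAAT boxes bound by NF-Y. RefSeq windows of GRCm38.p6, from 250 bases before to 50 bases after the annotated start, were matched by symbol for 27 members. The first bases after the RefSeq start were found in a GENCODE transcript of the gene for 17 of the 27, Ncapd2 and Cenpa among them but not Mki67 or Aurka, so positions hold for the RefSeq start alone. The other members are Ccna2, Aurkb, Kif20a, Tpx2, Cdc25c and Dlgap5. The letters TTTGAA or TTCGAA, searched on both strands, were present in 21 of 27 windows (77.8%), against 19.2% of all 32851 windows of the table. CCAAT, on either strand, was present in 21 of 27 (77.8%), against 37.4% of all windows, and both together in 18 of 27 (66.7%), against 7.52%. The E2F letters TTTCCCGC, TTTCGCGC, TTTGCCGC or TTTGGCGC were present in 2 of 27 (7.41%), against 2.26% of all windows. The windows of 4 of the called members are printed. Cenpa, which fell, holds TTTGAA and the CCAAT box, as do 3 that rose. Of these 4, Ncapd2 alone also holds E2F letters, TTTGGCGC, 8 bases before the start, and they are not marked. Capitals mark TTTGAA and CCAAT, or ATTGG where the box lies on the other strand, and no capitals of one motif overlap those of the other. The windows are those of Mki67 (chr7:135716330-135716629, minus strand), Ncapd2 (chr6:125191537-125191836, minus strand), Aurka (chr2:172370521-172370820, minus strand) and Cenpa (chr5:30666636-30666935, plus strand), each written 5′ to 3′ in the direction of its gene.
Mki67: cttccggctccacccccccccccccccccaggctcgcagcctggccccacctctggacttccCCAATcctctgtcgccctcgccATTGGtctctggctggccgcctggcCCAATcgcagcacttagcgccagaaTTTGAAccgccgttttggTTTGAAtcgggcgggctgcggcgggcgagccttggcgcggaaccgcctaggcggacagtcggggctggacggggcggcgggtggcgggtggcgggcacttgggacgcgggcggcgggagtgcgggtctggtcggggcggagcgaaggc
Ncapd2: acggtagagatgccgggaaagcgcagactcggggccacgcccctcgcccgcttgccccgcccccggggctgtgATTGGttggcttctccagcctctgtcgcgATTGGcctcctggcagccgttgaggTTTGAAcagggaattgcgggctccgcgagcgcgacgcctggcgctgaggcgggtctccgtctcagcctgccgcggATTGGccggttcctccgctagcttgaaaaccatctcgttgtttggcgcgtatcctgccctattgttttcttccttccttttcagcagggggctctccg
Aurka: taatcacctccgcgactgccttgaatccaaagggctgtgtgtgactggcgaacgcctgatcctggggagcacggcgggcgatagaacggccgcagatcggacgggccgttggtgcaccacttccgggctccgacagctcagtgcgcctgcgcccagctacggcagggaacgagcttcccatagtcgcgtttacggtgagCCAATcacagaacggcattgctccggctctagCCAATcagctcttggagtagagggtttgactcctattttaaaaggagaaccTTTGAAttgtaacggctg
Cenpa: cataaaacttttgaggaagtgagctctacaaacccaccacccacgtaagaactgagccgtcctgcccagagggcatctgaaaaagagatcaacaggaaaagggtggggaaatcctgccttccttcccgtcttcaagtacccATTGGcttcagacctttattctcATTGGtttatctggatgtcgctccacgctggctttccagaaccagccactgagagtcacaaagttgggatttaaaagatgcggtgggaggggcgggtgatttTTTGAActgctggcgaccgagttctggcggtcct
TTTGAA stood at 116 and 98 bases before the start in Mki67 and at 123 before it in Ncapd2, and it began at base 33 after it in Aurka and at base 17 after it in Cenpa, counted from 1 at the start that the RefSeq window is built on. A match of letters is a description and does not show that a factor bound there.

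Among the genes that trigger mitosis, none of the 5 passed. Cdk1, the kinase at the centre of mitotic entry, was at 163, 167, 162, 174 and 174 CPM in CK2i libraries 1 to 5, against 159.7, 173, 153, 159 and 164 CPM in vehicle libraries 1 to 5. The groups overlapped, and the log2 difference of 0.058 ± 0.041 (SE, adjusted p = 0.332) had a 95% interval of -0.031 to 0.15. Its partner Ccnb1, cyclin B1, was at 209, 204, 196, 228 and 218 CPM in CK2i libraries 1 to 5, against 199, 219, 187, 204 and 206 CPM in vehicle libraries 1 to 5. Vehicle 2 lay above all CK2i libraries but CK2i 4, and the difference was 0.058 ± 0.052 (adjusted p = 0.446, interval -0.056 to 0.17). Ccna2, cyclin A2, which acts in S phase and G2, was at 305, 309.7, 297, 340.4 and 328 CPM in CK2i libraries 1 to 5, against 295, 303, 281, 293 and 309 CPM in vehicle libraries 1 to 5. Its 3 highest values were in CK2i 4, 5 and 2, with a difference of 0.093 ± 0.045 (adjusted p = 0.163, interval -0.0050 to 0.19). Exons of Ccna2 and Exosc9 share 510 bases on opposite strands, and whether strand was used in counting is not stated; Exosc9 differed by 0.013 ± 0.034 (adjusted p = 0.818). Ccnb2, cyclin B2, and Cdc25c differed by 0.026 ± 0.053 and 0.034 ± 0.051 (adjusted p = 0.752 and 0.656), and no interval in this group ended above 0.19.

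Of the kinases of centrosomes and mitotic entry, 1 of 3 rose. Aurka (ENSMUSG00000027496; GRCm38 chromosome 2, 172356190 to 172370535, minus strand), needed for centrosome maturation and spindle assembly, was at 82.3, 79.5, 82.7, 84.6 and 87.3 CPM in CK2i libraries 1 to 5, against 74.9, 81.5, 70.5, 72.4 and 75.5 CPM in vehicle libraries 1 to 5. All but CK2i 2 lay above every vehicle library, and the rise was 0.15 ± 0.044 log2 (adjusted p = 0.0466). Plk1, the Polo kinase that acts from mitotic entry to cytokinesis, was at 90.1, 93.9, 90.5, 96.8 and 95.7 CPM in CK2i libraries 1 to 5, against 83.4, 94.0, 80.9, 85.3 and 90.8 CPM in vehicle libraries 1 to 5. Vehicle 2 and 5 lay inside the CK2i range, and Plk1 did not pass (0.10 ± 0.047, adjusted p = 0.139, interval 0.0018 to 0.21). Nek2, which separates centrosomes, differed by 0.035 ± 0.048 (adjusted p = 0.63).

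Both members of the chromosomal passenger complex missed the threshold. Aurkb, its kinase, which corrects faulty attachments and controls cytokinesis, was at 125, 125, 118, 121 and 132 CPM in CK2i libraries 1 to 5, against 109, 119, 112, 115 and 113 CPM in vehicle libraries 1 to 5. Of the CK2i libraries, CK2i 3 alone lay inside the vehicle range, and the difference was 0.13 ± 0.040 (adjusted p = 0.054, interval 0.041 to 0.22). It passed by DESeq2 (adjusted p = 0.0196), by limma on log2(FPKM + 1) (0.0437) and with RLE scaling (0.0497). Birc5, survivin, the subunit that helps bring the complex to centromeres, was at 102, 109.9, 96.7, 108 and 109 CPM in CK2i libraries 1 to 5, against 94.1, 99.9, 93.5, 99.1 and 102 CPM in vehicle libraries 1 to 5. CK2i 2, 4 and 5 were above all vehicle libraries, with a difference of 0.10 ± 0.045 (adjusted p = 0.128, interval 0.0054 to 0.20). Their scaffold Incenp, from the wider list described below, was called.

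None of the 3 spindle checkpoint genes passed. Bub1, a kinase at unattached kinetochores, Bub1b, the BubR1 component of the mitotic checkpoint complex, and Ttk, the kinase Mps1, differed by 0.076 ± 0.058, 0.055 ± 0.037 and 0.072 ± 0.062 (adjusted p = 0.373, 0.318 and 0.43). For all 3 the highest 2 libraries were CK2i 4 and 5 while CK2i 3 lay within or below the vehicle values. Their intervals ended at 0.20, 0.14 and 0.21.

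Centromere and kinetochore genes held both the member that fell and 2 of the 4 largest positive differences. Cenpa (ENSMUSG00000029177; GRCm38 chromosome 5, 30666777 to 30674830, plus strand), the histone H3 variant that marks the centromere, was at 106, 99.5, 101, 111 and 99.1 CPM in CK2i libraries 1 to 5, against 118, 123, 123, 122 and 128 CPM in vehicle libraries 1 to 5. The highest CK2i library lay below the lowest vehicle library. The fall was by 0.25 ± 0.041 log2 (adjusted p = 0.0104), with an interval of -0.34 to -0.16. Hjurp, the chaperone that deposits Cenpa, was at 424, 441, 435, 460.4 and 453 CPM in CK2i libraries 1 to 5, against 403, 449.5, 469, 444 and 473 CPM in vehicle libraries 1 to 5. Its groups overlapped, and the difference was -0.017 ± 0.047 (adjusted p = 0.82, interval -0.12 to 0.086), with the opposite sign on the FPKM scale (0.042, limma adjusted p = 0.643).

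Cenpf, a large kinetochore protein that accumulates in G2, was at 152, 223, 144, 179.7 and 212 CPM in CK2i libraries 1 to 5, against 133, 141, 149, 144 and 143 CPM in vehicle libraries 1 to 5. CK2i 2 and 5 were far above all others, CK2i 3 was inside the vehicle range, and the difference of 0.36 ± 0.11 did not pass (adjusted p = 0.0567, interval 0.11 to 0.60). Without CK2i 2 and 5 it was 0.15 (adjusted p = 0.25). Cenpe, the kinesin that carries chromosomes toward the spindle equator, averaged 221 ± 28.7 CPM in CK2i libraries and 184 ± 12.6 CPM in vehicle libraries and differed by 0.26 ± 0.086 (adjusted p = 0.0635). Both passed by DESeq2 (adjusted p = 0.0172 and 0.0263). Ndc80 and Nuf2 differed by 0.073 ± 0.070 and 0.0080 ± 0.048 (adjusted p = 0.483 and 0.922).

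Of 9 spindle kinesins and microtubule proteins 1 rose and none fell, and all 9 differences were above 0 (median 0.086). Kif20a (ENSMUSG00000003779; GRCm38 chromosome 18, 34624613 to 34633277, plus strand), which moves the passenger complex to the anaphase midzone, was at 151, 147, 143, 160.2 and 156 CPM in CK2i libraries 1 to 5, against 130.3, 145, 134, 138 and 137 CPM in vehicle libraries 1 to 5. CK2i 3 alone of the treated libraries was below the highest vehicle library, and the rise was 0.15 ± 0.042 (adjusted p = 0.0452). Exons of Kif20a and its opposite-strand neighbour Cdc23 share 1271 bases. Cdc23 itself, a subunit of the anaphase-promoting complex, differed by -0.034 ± 0.035 (adjusted p = 0.515). Kif23, the motor of the centralspindlin complex needed for cytokinesis, was at 76.3, 92.2, 69.8, 82.9 and 95.3 CPM in CK2i libraries 1 to 5, against 58.3, 75.2, 71.8, 71.3 and 64.3 CPM in vehicle libraries 1 to 5. CK2i 2 and 5 were highest and vehicle 1 and 5 lowest, and the difference of 0.29 ± 0.094 did not pass (adjusted p = 0.0622, interval 0.082 to 0.50) but did by DESeq2 (0.0258).

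The other spindle members had differences between 0.037 and 0.14. Kif20b, a kinesin of late cytokinesis, and Dlgap5, which stabilises kinetochore fibres, differed by 0.14 ± 0.059 and 0.14 ± 0.072 (adjusted p = 0.112 and 0.174). Kif11, the motor that separates the poles, Kif2c, a microtubule depolymerase, and Tpx2, an activator of Aurka, differed by 0.064 ± 0.060, 0.077 ± 0.060 and 0.083 ± 0.041 (adjusted p = 0.473, 0.377 and 0.177). Nusap1, a microtubule bundler, and Hmmr, a spindle-associated protein, differed by 0.086 ± 0.066 and 0.037 ± 0.063 (adjusted p = 0.376 and 0.699).

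Genes of mitotic chromosome structure gave 2 of the 4 rises. Mki67 (ENSMUSG00000031004; GRCm38 chromosome 7, 135689784 to 135716361, minus strand), whose protein coats mitotic chromosomes and is the common histological marker of dividing cells, was at 1303, 1949.6, 1209.5, 1639 and 1848 CPM in CK2i libraries 1 to 5, against 1128, 1195, 1186, 1241 and 1262 CPM in vehicle libraries 1 to 5. CK2i 2, 4 and 5 were well above the vehicle range, CK2i 1 just above it and CK2i 3 within it. The rise was 0.40 ± 0.12 (adjusted p = 0.0492), with an interval of 0.14 to 0.67. Between-library variation was 20.5% of the mean in CK2i and 4.33% in vehicle. Ncapd2 (ENSMUSG00000038252; GRCm38 chromosome 6, 125168007 to 125191701, minus strand), a subunit of condensin I, which compacts chromosomes, was at 373, 420.0, 357, 398 and 402 CPM in CK2i libraries 1 to 5, against 309, 351, 338, 353 and 342 CPM in vehicle libraries 1 to 5. The lowest CK2i library exceeded the highest vehicle library, and the rise was 0.20 ± 0.053 (adjusted p = 0.034). The small RNA gene Scarna10 shares 237 exon bases with Ncapd2 on the same strand and differed by 0.0088 ± 0.046 log2 (adjusted p = 0.911). Scarna10 was at 258 ± 14.9 CPM in CK2i libraries and 257 ± 9.84 CPM in vehicle libraries. How reads were divided between these genes was not tested. Top2a, described elsewhere as a CK2 substrate at the protein level, was at 1067, 1195, 1103, 1175 and 1313 CPM in CK2i libraries 1 to 5, against 1044, 1133, 1075, 1066 and 1064 CPM in vehicle libraries 1 to 5. CK2i 1 and 3 lay within the vehicle range and CK2i 5 was highest, and Top2a did not pass (0.12 ± 0.054, adjusted p = 0.138, interval 0.0024 to 0.24).

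**Figure D3:**
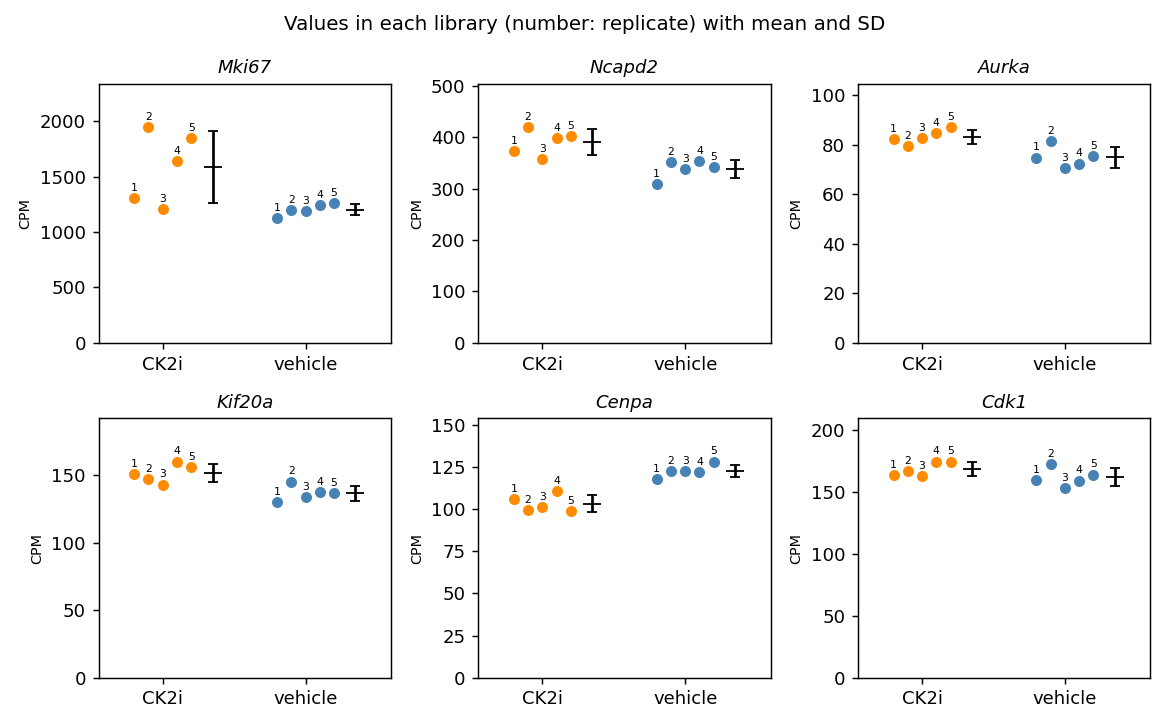
CPM in each library for the 5 called members and, for scale, Cdk1; dots are libraries labelled with their replicate number, CK2i in orange left of vehicle in blue, with mean and SD (n = 5 per group) in black, and axes start at 0. Cenpa and Ncapd2 separate the groups, Aurka and Kif20a overlap by 1 library each, and in Mki67 the CK2i values spread from 1209.5 to 1949.6 CPM.

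Neither partner of the anaphase-promoting complex passed. Ube2c, the ubiquitin-conjugating enzyme that works with it, was at 84.6, 83.3, 84.8, 85.7 and 87.3 CPM in CK2i libraries 1 to 5, against 87.6, 87.9, 81.4, 84.9 and 86.9 CPM in vehicle libraries 1 to 5. Those values overlapped throughout, with a difference of -0.010 ± 0.033 (adjusted p = 0.854) and an interval of -0.083 to 0.063. Cdc20, its mitotic activator and the target of the checkpoint, was at 157, 143, 148, 159 and 149 CPM in CK2i libraries 1 to 5, against 148, 152, 136, 144 and 148 CPM in vehicle libraries 1 to 5. CK2i 4 and 1 were highest and CK2i 2 was below 4 vehicle libraries, with a difference of 0.053 ± 0.042 (adjusted p = 0.396, interval -0.040 to 0.15).

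Members also differed together between libraries of the same group. A score per library, the average of log2 CPM over the 33 members set against the average of the vehicle libraries, was 0.039, 0.11, -0.022, 0.17 and 0.18 in CK2i libraries 1 to 5 and -0.066, 0.066, -0.027, -0.0057 and 0.032 in vehicle libraries 1 to 5. CK2i 3 lay within the vehicle scores and CK2i 1 did too, while CK2i 2, 4 and 5 lay above them. CK2i 3 was the lowest CK2i library for 22 of 33 members (23.9% of all genes), and CK2i 4 or 5 the highest for 16 and 13 (19.1% and 17.8% of all genes). In the vehicle group vehicle 2 was highest for 21 members (21.3% of all genes) and vehicle 1 lowest for 19 (20.9%). The median coefficient of variation was 5.95% over members in CK2i and 4.33% in vehicle. Over the 7258 genes at or above the lowest member in mean CPM it was 6.82% in CK2i and 4.86% in vehicle. Variation was greater in CK2i for 27 of 33 members, and for 69.1% of all genes.

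By role, scores in CK2i 2, 4 and 5 were 0.39, 0.27 and 0.39 for chromosome structure, where vehicle libraries ended at 0.040. For cyclins, Cdk1 and Cdc25c they were -0.00011, 0.15 and 0.11, with vehicle libraries up to 0.064. The 3 CK2i libraries with the highest member scores also had the lowest megakaryocyte marker scores: over 10 tested markers these were -0.43, -1.16, -0.11, -0.72 and -0.94 in CK2i libraries 1 to 5 and -0.057, -0.34, 0.28, -0.16 and 0.28 in vehicle libraries 1 to 5. Scores of 10 monocyte markers were 0.39, 1.03, 0.19, 0.50 and 1.09 in CK2i libraries 1 to 5 and 0.072, 0.20, -0.23, 0.20 and -0.24 in vehicle libraries 1 to 5. Among CK2i libraries, 2, 4 and 5 also had the lowest B lymphoid and plasma cell scores (-0.52, -0.62 and -0.58). They had the highest late neutrophil scores of that group (1.08, 0.66 and 0.87), with vehicle 3 at 0.94. In the progenitor, erythroid, T and NK and stromal lists these 3 libraries did not stand apart from the other CK2i libraries. The part of any of these cells in the member scores was not tested.

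**Figure D4:**
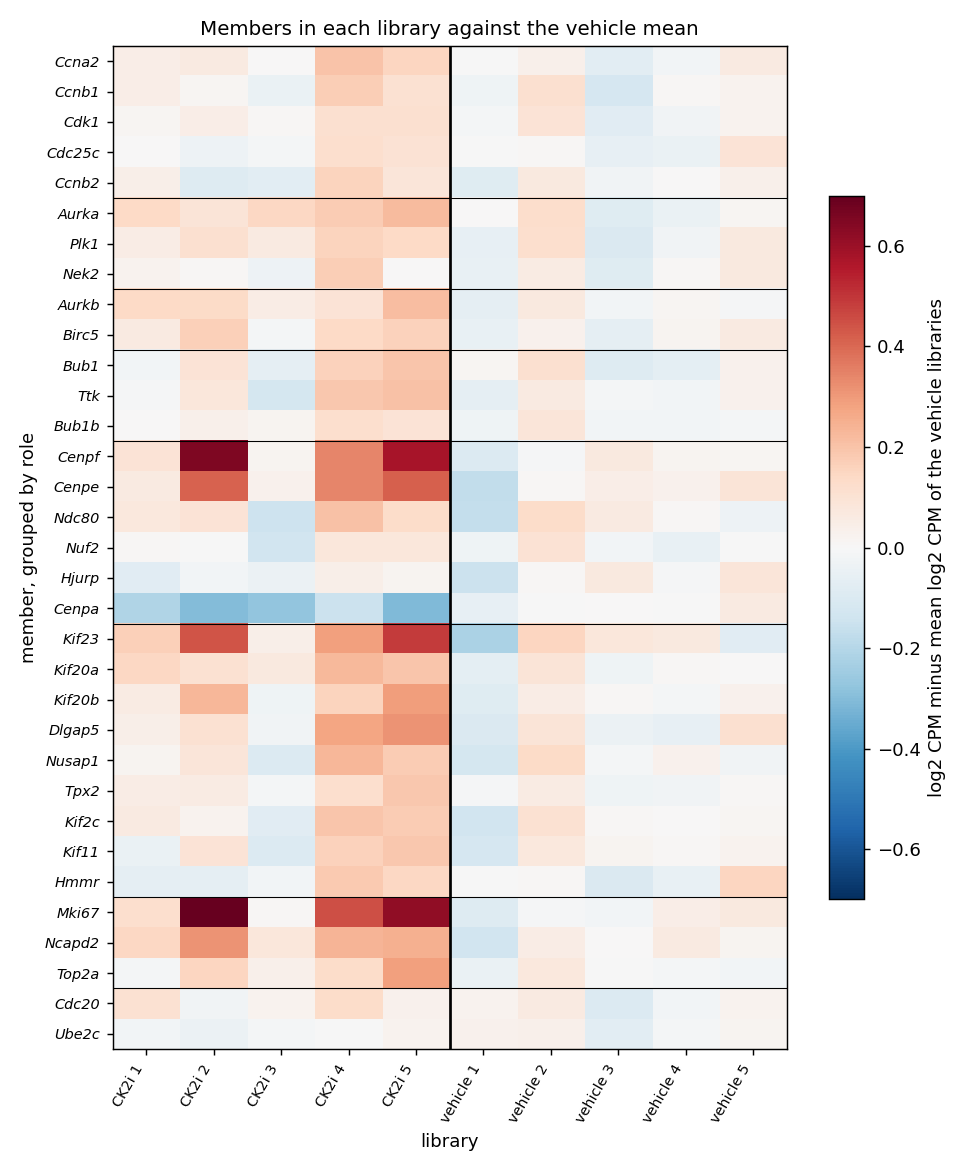
Log2 CPM of each member (rows, grouped by role) in each library minus the mean of the 5 vehicle libraries; CK2i libraries stand left of the black line and vehicle libraries right of it, red is above and blue below the vehicle mean. CK2i 2, 4 and 5 are red for most members, with Mki67, Cenpf, Cenpe and Kif23 the deepest, CK2i 3 is close to the vehicle libraries, and Cenpa is blue in all 5 CK2i libraries.

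Transcript length moved with the difference between groups. Over the 14150 tested genes with an annotated length, the median log2 difference was -0.052 for 1198 genes whose longest transcript was under 1 kb, -0.040 for 1 to 2 kb, -0.013 for 2 to 4 kb, 0.028 for 4 to 8 kb and 0.14 for 737 genes of 8 kb or more. In the longest class 12.3% of genes were called higher and 4.75% lower, and in the shortest class 2.92% and 6.68%. Mki67 and Cenpf, with longest transcripts of 10061 and 11130 bases, are the 2 members in the longest class, and Cenpe follows with 7910 bases. These 3 and Kif23, with 3398 bases, had the 4 largest positive differences among members. Across the 33 members, which share their libraries and are not independent, Spearman's rho between length and difference was 0.33, and over all genes it was 0.13. The median of the 8 kb class relative to vehicle was 0.032, 0.29, 0.014, 0.082 and 0.19 in CK2i libraries 1 to 5 and -0.026, -0.035, 0.055, 0.026 and -0.0012 in vehicle libraries 1 to 5, highest in CK2i 2, 5 and 4, the libraries where Mki67 and Cenpf were highest. By longest transcript, 3806 bases, the fall of Cenpa stands in a class whose median was -0.013. The longest transcript need not be the one expressed. Cenpa was at 103 CPM and 99.8 FPKM in CK2i libraries, and FPKM divides by length in kb. The deposited scaling thus used a length near 1 kb for it, where class medians were -0.052 and -0.040. Cdk1, listed with 4375 bases, was at 168 CPM and 196 FPKM in CK2i libraries. The length classes of single members, and rho across them, are therefore uncertain. The part of length, or of RNA quality, in the member differences was not tested.

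**Figure D5:**
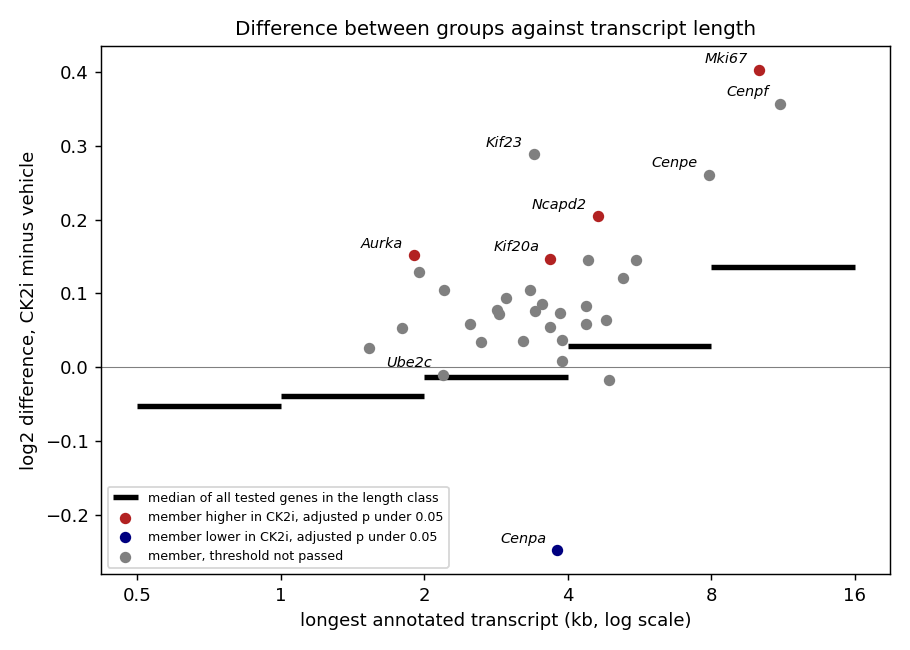
Log2 difference, CK2i minus vehicle, of each member (dots) against its longest annotated transcript in kb (log scale); black bars are medians of all tested genes per length class, drawn with the lowest class starting at 0.5 kb and the highest ending at 16 kb. The medians climb with length from -0.052 to 0.14, most members lie above the bar of their class, and Cenpa lies far below it. For Cenpa and Cdk1 the deposited FPKM reflect a shorter length than the one drawn.

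The rest of the mitotic machinery was read from 6 lists with 142 genes, all of them tested. Of these 10 rose and 2 fell (8.45%, beside 13.2% of all genes), with a median log2 difference of 0.055 and 67.6% of differences above 0. The one call that held in all 10 fits without 1 library was that of Mybl2, which encodes B-Myb, the MuvB partner that activates mitotic genes. It was at 112, 110.4, 99.5, 117 and 109.8 CPM in CK2i libraries 1 to 5, against 88.5, 92.0, 86.3, 93.7 and 97.2 CPM in vehicle libraries 1 to 5. All CK2i libraries were above all vehicle libraries, and the rise was 0.26 ± 0.049 (adjusted p = 0.0159). Foxm1, which acts with it, is given here after its value was seen: it differed by 0.27 ± 0.085 and did not pass (adjusted p = 0.0591). The other 11 calls each held in 1 to 6 of these fits, and the count of 12 became 38 without CK2i 3, 7 without CK2i 4, 3 without vehicle 3 or vehicle 5, and 1 without CK2i 2, CK2i 5, vehicle 1 or vehicle 4. Calls over all genes ran from 446 to 3198 across these 10 fits. With the treated group limited to CK2i 1, 3 and 4, the count for the 142 genes was 0, with 19 at an unadjusted p under 0.05. In that fit 175 of 14583 genes were called, and 2742 had an unadjusted p under 0.05. Of 21 mitotic entry regulators 2 rose and 1 fell. The others were Ccnf, cyclin F, which rose by 0.19 ± 0.057 (adjusted p = 0.0487), and Cks2, a small subunit of cyclin-dependent kinases, which was lower with -0.18 ± 0.045 (adjusted p = 0.0296).

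Of 35 further centromere, kinetochore and passenger genes 3 rose and 1 fell. Incenp, the scaffold of the passenger complex, was at 167, 187, 164, 174 and 186 CPM in CK2i libraries 1 to 5, against 142, 156, 149.8, 154 and 156 CPM in vehicle libraries 1 to 5, without overlap of the groups, a rise of 0.21 ± 0.047 (adjusted p = 0.0239). Mis12, a kinetochore scaffold, rose by 0.20 ± 0.058 (adjusted p = 0.0484) and Kntc1, which recruits the checkpoint and dynein to kinetochores, by 0.20 ± 0.059 (0.0478). Cenpx, a histone-fold protein of the inner kinetochore, was lower with -0.18 ± 0.049 (adjusted p = 0.0375). Among 23 condensin, cohesin and separase genes 3 rose: Ncapg2 of condensin II by 0.32 ± 0.085 (adjusted p = 0.0387), Espl1, separase, by 0.18 ± 0.049 (0.0413) and Pds5b, a cohesin regulator, by 0.49 ± 0.14 (0.0425). Of 14 centriole and pole genes, Cep152 and Cep192, scaffolds for centriole duplication and pericentriolar material, rose by 0.26 ± 0.059 (adjusted p = 0.0249) and 0.24 ± 0.060 (0.032). None of 22 checkpoint and anaphase-promoting complex genes and none of 27 spindle and cytokinesis genes passed in edgeR's test. An unadjusted p under 0.05 was reached by 4 and 12 of them (18.2% and 44.4%, beside 34.6% of all genes). DESeq2 called none of the checkpoint list and 2 of the spindle list, Cit, the citron kinase of cytokinesis, and Troap.

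Genes of the preceding and opposing steps of the cycle are set beside these. Of 34 S phase and replication genes 3 rose and none fell (8.82%, beside 13.2% of all genes), with a median of 0.087, close to that of the members. They were Rrm2, the regulated subunit of ribonucleotide reductase (0.34 ± 0.084, adjusted p = 0.0296), Ccne2, cyclin E2 (0.23 ± 0.069, 0.0499), and Uhrf1, which maintains DNA methylation at replication (0.11 ± 0.034, 0.0487). Over the 10 fits without 1 library these calls held in 5, 2 and 1 of them, and that of Cdkn2d below in 3. Scores of the S phase list were 0.047, 0.11, 0.0083, 0.17 and 0.11 in CK2i libraries 1 to 5 and -0.018, 0.049, -0.082, 0.010 and 0.041 in vehicle libraries 1 to 5. Here too CK2i 3 lay within the vehicle range, and CK2i 2, 4 and 5 lay above it. Of 8 tested CDK inhibitor and pocket protein genes 1 fell, Cdkn2d, the inhibitor p19, at 28.3 ± 4.12 CPM in CK2i libraries and 36.0 ± 3.82 CPM in vehicle libraries (-0.35 ± 0.10 log2, adjusted p = 0.0498).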

How the data were processed

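RNA of 5 CK2i and 5 vehicle libraries was sequenced as paired reads from a stranded total RNA kit, per the labels' protocols. Per the submitters' processing notes, the authors used Bowtie2 and RSEM 1.2.31 with mm10 as the genome build; the notes also name DESeq2. The deposited table holds estimated counts per gene, whole numbers as deposited by the authors, and FPKM values, which the authors scaled to transcript length and depth. The annotation, the strand setting and any filter were not stated. Of 38887 identifiers, 37570 matched GENCODE M21 (GRCm38), and 2 empty lines were left out.

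Counts were tested with edgeR 4.0.16 (R 4.3.3), quasi-likelihood, two-sided, on TMM-scaled libraries with 1 term, the group. A gene entered by filterByExpr with a minimum count of 10, and p-values were adjusted by Benjamini-Hochberg over all 14346 genes. An adjusted p that is printed without a tool is from this fit. CPM carry TMM scaling, errors of means are SD and errors of log2 differences SE, and intervals are 95%. Scores use log2 CPM with a prior count of 2. The average biological coefficient of variation over all genes, estimated by edgeR, was 14.2%. It is another measure than the variation of CPM given for members, which was 1.74% to 20.5% in CK2i and 2.54% to 10.0% in vehicle libraries. Counting error was not separated from spread between libraries. The script was tested on simulated data. No 2 libraries of a group agreed within sampling noise (chi-square per degree of freedom 10.31 to 67.8). Alternatives were RLE scaling, no filter, a replicate block, CK2i 1, 3 and 4 alone, each library left out, DESeq2 1.42.0, and limma 3.58.1 on log2(FPKM + 1) or log2(FPKM + 0.1).

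The members and gene lists were chosen with earlier results of these data known. Library values are given for each called member, for Cdk1, Ccnb1, Ccna2, Aurkb, Plk1, Top2a, Mki67, Cdc20, Ube2c and Birc5 whatever their test, and for the 3 largest differences in each direction. Of the other lists, called genes are named.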

Additional observations from a re-analysis of the deposited data

Results flagged for a closer look

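Within a group of 5 libraries, a value was marked where its gap to the nearest other library exceeded 0.71 of the group's range, Dixon's 95% limit. Of 66 groups examined, 33 members in CK2i and in vehicle, 3 were marked, and chance marks about 1 in 20 groups. Nek2 was at 94.47 CPM in CK2i 4, with the other CK2i libraries at 81.8 to 85.4 CPM. Bub1b was at 212.7 CPM in vehicle 2, with the other vehicle libraries at 196.1 to 198.1 CPM. Nuf2 was at 94.54 CPM in vehicle 2, with the other vehicle libraries at 85.0 to 87.8 CPM. None of these genes passed edgeR's test, and vehicle 2 was the highest vehicle library for 21 of 33 members.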

How the results depend on the processing

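Over all genes, 1892 were called by edgeR, against 1842 with RLE scaling, 1370 without the filter, 175 with CK2i 1, 3 and 4 alone, 3142 by DESeq2, 1197 and 1223 by limma on log2(FPKM + 1) and log2(FPKM + 0.1), and 446 to 3198 with 1 library left out. Of the members 5 were called, against 6 with RLE scaling, 2 without the filter (Cenpa and Ncapd2), 1 with CK2i 1, 3 and 4 alone, 9 by DESeq2, 4 by either limma fit and 1 to 11 with 1 library left out. Of the other pathway genes 12 were called, against 14 with RLE scaling, 7 without the filter, 0 with CK2i 1, 3 and 4 alone, 25 by DESeq2, 5 by either limma fit and 1 to 38 with 1 library left out. With CK2i 1, 3 and 4 alone, 19 of 142 pathway genes and 2742 of all 14583 genes had an unadjusted p under 0.05. Cenpa was called under every alternative run. With the replicate number as a block (replicate block), 1139 genes, 2 members (Cenpa and Ncapd2) and 8 pathway genes were called. Libraries of one number correlated at 0.23, 0.11, 0.068, 0.030 and -0.16 in their deviations. For CK2i 1 and 2 alone, the best match among vehicle libraries was the one of the same number. The numbers were therefore not taken as pairs.

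Single members kept direction and side of the threshold in 490 alternatives, passed newly in 15, lost the threshold in 45 and turned sign in 11, all with differences near 0. Nuf2 was at -0.0012 without the filter, -0.015 with CK2i 1, 3 and 4 alone and -0.011 to 0.041 with 1 library left out. Hjurp was at 0.042 and 0.043 by limma and -0.053 to 0.0029 with 1 library left out, Ccnb2 at -0.0083 to 0.054 and Nek2 at -0.00083 to 0.052. The causes were not tested. Depth was at least 34127674 counts per library, and the parts of counting error and of other spread between libraries were not separated.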
